A study of Mus musculus with 20 samples.

Results

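The female against male contrast in livers of C3H/HeN (C3) mice was examined for genes on the autosomes. It set 5 females against 5 males, which are 10 of the 20 livers sequenced in the study. The members were all rows of the count table placed on an autosome, 23974 of 25444 loci, and 13259 of them passed the filter on low counts and were tested. Rows on the X and Y chromosomes and on sequences labelled random were left out. The cytochrome P450 genes were tested with the rest but are given here only as a count, and the other genes were described by their function in the liver. Counts and shares over all called genes, promoter windows and neighbouring pairs include the P450 genes.

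The mice were of an inbred strain and 20 weeks of age, and the labels name no treatment. All were housed 1 to a cage and were moved from a breeding diet to NTP2000 diet some weeks before the livers were taken, and for the left lateral lobe of each liver 1 strand-specific total RNA library was made after depletion of ribosomal RNA. The sexes were housed in different rooms, and an effect of the room cannot be told apart from that of sex. The results hold for 1 inbred strain at 1 age. The other 10 livers, 5 females and 5 males of the C57BL/6N (B6) strain of the same age and housing, entered the same model, where they also fed the estimate of the spread behind the C3 calls, and they served to ask where the difference in C3 was not the same in B6. With the C3 libraries alone 599 genes were called in place of the 898 given below.

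The liver is one of the tissues in which males and females differ most in rodents. In adult rodents the pituitary releases growth hormone in separate pulses in males and more evenly in females, and hepatocytes read this pattern through the growth hormone receptor, the kinase Jak2 and the transcription factor Stat5b. Factors such as Hnf6, Cux2 and Bcl6 act with or against Stat5b, and the genes known to depend on this signal include major urinary proteins, sulfotransferases, hydroxysteroid dehydrogenases and transporters.

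The sequence directly before the start of a few strongly sex-biased genes is shown. They are examples and not the genes with the largest differences. Each of them holds a match to a motif marked here, which most strongly biased genes do not, so they do not stand for the others. Each line holds the 300 bases before the annotated start, read 5′ to 3′ on the strand of the gene from the mm9 reference, which is the sequence of C57BL/6J and not of C3H/HeN. Capitals mark matches on either strand to TTCNNNGAA, the form of motif that Stat5 is known to bind, and to ATTGAT, the form known for Hnf6. The first 3 are female-higher genes, A1bg (chr15:60752826-60753125, minus strand), Sult3a1 (chr10:33577228-33577527, plus strand) and Slc22a26 (chr19:7877158-7877457, minus strand). The others are male-higher genes, Mup21 (chr4:61811876-61812175, minus strand), Mup20 (chr4:61715152-61715451, minus strand) and Serpina1e (chr12:105195108-105195407, minus strand).
A1bg: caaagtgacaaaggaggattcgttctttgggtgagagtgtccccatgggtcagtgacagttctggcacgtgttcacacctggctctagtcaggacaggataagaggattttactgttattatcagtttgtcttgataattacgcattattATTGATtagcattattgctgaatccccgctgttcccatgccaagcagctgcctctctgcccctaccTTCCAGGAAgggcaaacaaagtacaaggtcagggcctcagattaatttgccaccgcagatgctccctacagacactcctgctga
Sult3a1: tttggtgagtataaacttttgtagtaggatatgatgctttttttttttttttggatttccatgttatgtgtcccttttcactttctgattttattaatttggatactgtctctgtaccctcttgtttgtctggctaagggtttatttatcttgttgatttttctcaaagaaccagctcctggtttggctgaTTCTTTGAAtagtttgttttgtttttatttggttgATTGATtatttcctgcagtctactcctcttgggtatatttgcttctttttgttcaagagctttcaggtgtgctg
Slc22a26: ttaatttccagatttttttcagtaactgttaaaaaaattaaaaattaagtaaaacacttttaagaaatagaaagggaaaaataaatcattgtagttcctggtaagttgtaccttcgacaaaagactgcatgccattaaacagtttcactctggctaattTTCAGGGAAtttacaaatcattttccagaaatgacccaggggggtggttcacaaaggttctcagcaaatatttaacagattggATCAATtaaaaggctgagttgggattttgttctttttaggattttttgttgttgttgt
Mup21: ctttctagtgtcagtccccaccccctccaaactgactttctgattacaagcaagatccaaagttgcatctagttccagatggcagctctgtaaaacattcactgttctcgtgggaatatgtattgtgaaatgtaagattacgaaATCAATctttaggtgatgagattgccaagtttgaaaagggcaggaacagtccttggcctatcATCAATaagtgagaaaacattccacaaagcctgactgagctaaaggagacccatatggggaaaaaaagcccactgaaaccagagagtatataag
Mup20: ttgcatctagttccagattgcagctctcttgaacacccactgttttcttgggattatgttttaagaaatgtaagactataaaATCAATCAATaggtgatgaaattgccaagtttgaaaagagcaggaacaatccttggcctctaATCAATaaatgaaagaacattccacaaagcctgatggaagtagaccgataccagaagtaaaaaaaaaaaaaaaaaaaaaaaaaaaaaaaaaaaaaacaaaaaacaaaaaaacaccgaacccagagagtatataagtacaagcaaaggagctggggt
Serpina1e: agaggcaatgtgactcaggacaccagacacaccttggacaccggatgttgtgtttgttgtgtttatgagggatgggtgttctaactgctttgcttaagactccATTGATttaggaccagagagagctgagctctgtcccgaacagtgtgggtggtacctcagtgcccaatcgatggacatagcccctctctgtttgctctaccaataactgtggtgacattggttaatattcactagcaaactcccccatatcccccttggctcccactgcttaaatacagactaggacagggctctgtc

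A match is a description of the letters and not evidence of binding. In A1bg the STAT5-type match TTCCAGGAA began 84 bases before the start and the HNF6-type match 150 bases before it. In Sult3a1 the positions were 109 and 74 bases, and in Slc22a26 they were 141 and 58 bases. These 3 were the only genes with a match to both motifs among the 59 female-higher genes with a log2 fold change over 3 (5.08%), beside 0.4% of all 13259 windows, 53 in number. Mup21 held the HNF6-type motif 156 and 94 bases before its start, and Mup20 held it 218, 214 and 156 bases before, of which the first pair overlaps. Among the 47 male-higher genes with a log2 fold change under -3, 11 windows (23.4%) held ATTGAT and 2 (4.26%) held TTCNNNGAA. Among the 59 female-higher ones the counts were 9 (15.3%) and 6 (10.2%), and among all windows the shares were 5.02% and 7.35%. These sets include P450 genes. Apart from P450 genes, those with ATTGAT among the 59 were A1bg, Rsph4a, Slc22a26, Sult3a1 and Vnn1. Among the 47 they were Adh6-ps1, Dkk4, Gm6614, Mup7, Mup12, Mup20, Mup21, Nuggc, Serpina1e and Tff3. Over all called genes ATTGAT was in 10.5% of the 372 male-higher and 7.41% of the 526 female-higher windows, TTCNNNGAA was in 5.91% and 7.98%, and both were in 0.538% and 1.71%. Several of the strongly biased genes are neighbouring copies with related sequence, among them Mup7, Mup12, Mup20 and Mup21, which all held ATTGAT and are not independent of each other.

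The 10 libraries held between 27370921 and 44044404 counts. The labels were met by the marker genes. Xist, the X-linked RNA that silences 1 X chromosome in females, was between 417 and 772 CPM (counts scaled to library size with the TMM method) in females and at most 0.348 CPM in males. The Y-linked Ddx3y was between 103 and 114 CPM in males and at most 1 count in any female library. All 17 hepatocyte markers were tested, among them Alb (serum albumin), which differed by 0.46 on the log2 scale (higher in females), under the minimum fold change given below. Log2 CPM correlated between livers of the same sex with r of 0.9735 to 0.9905 in females and 0.9777 to 0.9898 in males, and between the sexes with r of 0.947 to 0.9668, across genes that are not independent replicates.

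In bulk tissue, fewer cells of a type and less RNA per cell cannot be told apart, and the summed markers of several other cell types moved with sex. The 18 Kupffer cell and macrophage markers summed to 697 to 1063 CPM of the library total in females and 460.0 to 637 CPM in males, and 2 of them passed the test, Folr2 and Cd14, both higher in females. The summed levels were also higher in every female than in every male for markers of lymphocytes (30.2 to 54.5 against 22.7 to 26.3 CPM), neutrophils (5.28 to 10.6 against 3.59 to 4.23 CPM), stellate cells (686 to 781 against 558 to 652 CPM), endothelial cells (818 to 912 against 675 to 765 CPM) and cholangiocytes (70.1 to 99.4 against 44.3 to 58.0 CPM). For these 6 cell types the sexes also did not overlap with the most abundant marker left out of each sum, a check chosen after seeing the data. Single markers did not all follow the sums. Of 19 lymphocyte markers tested, 4 passed the test as higher in females. Cd4 passed it as higher in males, at 5.18 ± 1.44 against 0.814 ± 0.178 CPM (SD, n = 5 each, log2 fold change -2.56). Of 11 cholangiocyte markers tested, 2 passed as higher in females and Sox9 as higher in males (-0.84). Antigen presentation markers overlapped between the sexes, at 59.8 to 97.35 CPM in females and 35.3 to 135.6 CPM in males, and so did erythroid markers, of which 8 of 11 loci were at 0 in every C3 liver, and exocrine pancreas markers, of which 18 of 23 loci were at 0. Among hepatocyte markers, the sum of 17 periportal markers was higher in every female and that of 14 pericentral markers higher in every male, but in each list this depended on 1 gene. Without Alb, which made up 89.2% of the sum, the other 16 periportal markers summed to 10850.0 to 17290.0 CPM in females and 11400.0 to 14850.0 CPM in males, and without Aldh1a1 the other 13 pericentral markers summed to 1739 to 2041 and 1643 to 1988 CPM, with overlap in both. The pericentral markers that passed the test were Aldh1a1, Gulo and Ldhd, all higher in males (log2 fold changes -0.94, -0.60 and -0.63). Of the periportal markers only Ctsc passed, higher in females (1.62). The adipose and muscle markers, 7 of 17 at 0, summed to 1567 to 2224 CPM in females and 5117 to 6520.0 CPM in males, of which 99.8% came from Car3, a carbonic anhydrase that hepatocytes also express. Without Car3 the sums overlapped and stayed at or above 6.32 CPM in females and 6.06 CPM in males. The part of these cells in the results below was not tested.

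A gene was called when its adjusted p in edgeR's quasi-likelihood test was under 0.001 and its log2 fold change (females over males) was above 0.5 or below -0.5, the thresholds of the study. By this rule 898 of 13259 autosomal genes (6.77%) were called, 526 higher in females (3.97%) and 372 higher in males (2.81%). The female-higher share of the calls was 58.6%, and it was 69.2% under upper-quartile normalization and 72.3% and 76.8% with limma on log2(TPM + 1) and log2(TPM + 0.1), the last of which moved the median of all autosomal genes to 0.12. Of the 898, 36 were P450 genes, out of 76 tested, with 21 higher in females and 15 in males. The other 862 genes are the subject of the text, 6.54% of the 13183 tested without P450 genes, 505 higher in females (3.83%) and 357 higher in males (2.71%). In 726 of the 898 (80.8%) the 5 females did not overlap the 5 males, beside 12.9% of all genes tested. The libraries were sequenced in 3 pools that each held both sexes, with 2 females and 2 males in pool 1, 1 and 2 in pool 2 and 2 and 1 in pool 3. All 898 differences had the same sign within each pool. These genes were chosen from the same libraries in a fit with pool, so this agreement is a description and not a replication.

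**Figure D1:**
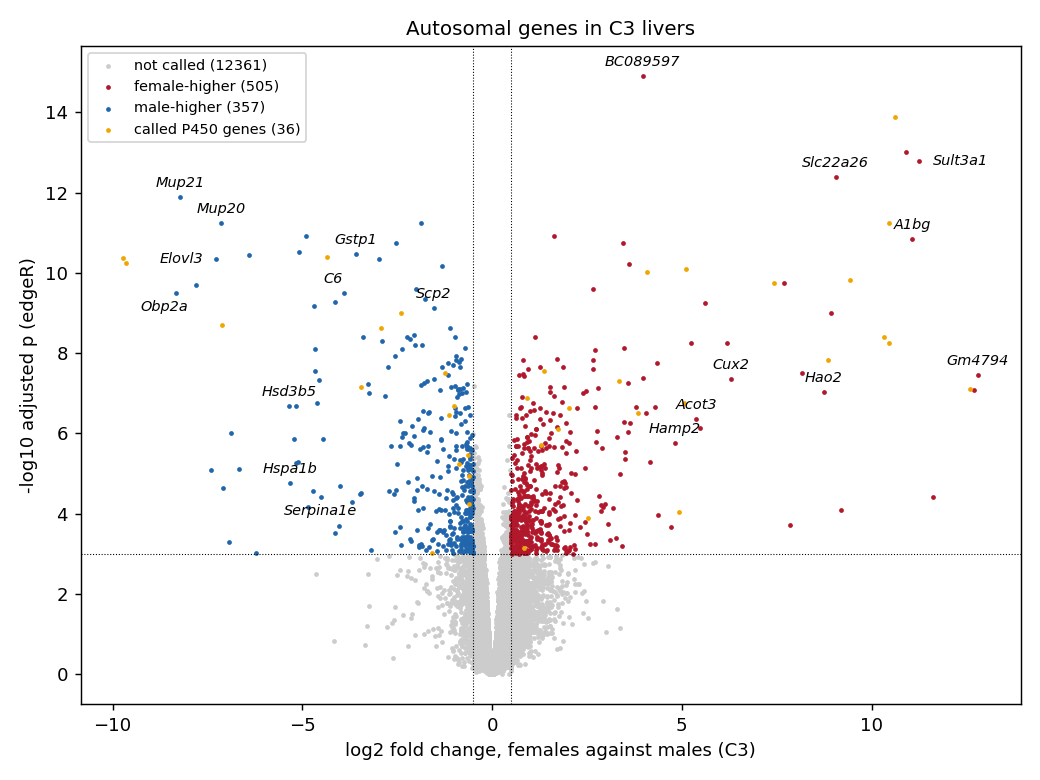
Each point is 1 of the 13259 autosomal genes tested, with the log2 ratio of females to males in C3 on the x axis and -log10 of the adjusted p from edgeR on the y axis, and dotted lines at the thresholds. Red points are the 505 female-higher and blue points the 357 male-higher genes other than P450 genes, which are the 36 yellow points, and the named points are examples on both sides.

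The difference was large for a minority. In absolute size it was over 1 on the log2 scale in 456 called genes and over 3 in 106, and the median was 1.03 among female-higher and -0.96 among male-higher genes, beside 0.01 over all autosomal genes tested. Abundance was not even between the directions: 103 male-higher genes reached a mean of 100 CPM in males and 23 reached 1000 CPM, against 59 and 4 of the female-higher genes in females. Counted per length, the male-higher genes held 12.5% to 15.3% of the summed TPM, a length-scaled share of transcripts, in male livers and 4.99% to 5.97% in female livers. The female-higher genes held 3.19% to 3.51% in females and 1.07% to 1.201% in males. These shares come from the genes that the contrast selected and are a description.

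Lists of genes for 22 liver functions held 1018 genes, of which 927 were autosomal and tested. Of these, 173 were called (18.7%), 76 higher in females and 97 in males. The plot of called genes by function shows that the share differed widely, from 62.5% of sulfotransferases to 2.0% of cholesterol and lipoprotein genes, against 6.77% of all autosomal genes. Genes named from these lists by the rule given at the end were chosen among called genes without overlap between the sexes. Their lack of overlap was a condition of choice and is no further support.

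**Figure D2:**
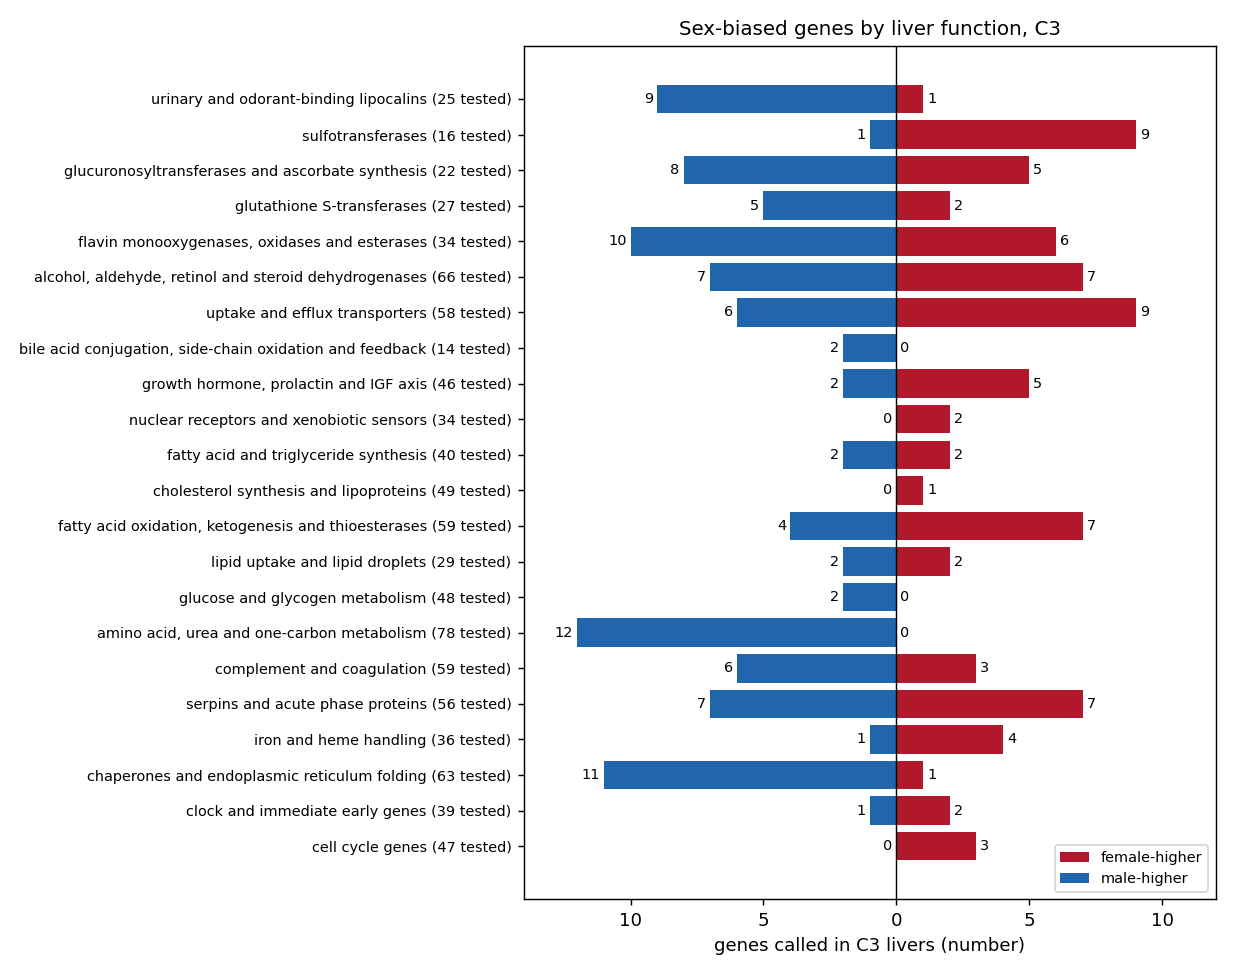
Bars show, for each of 22 function lists, the number of autosomal genes called higher in males (blue, to the left) and higher in females (red, to the right), with the number tested in brackets. Lipocalins (9 of 10 calls), chaperones (11 of 12) and amino acid genes (12 of 12) lean to males and sulfotransferases (9 of 10) to females.

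Conjugation of steroids and foreign compounds with sulfate was the function with the highest share of calls, and it lay almost wholly on the female side. Of 16 sulfotransferase genes tested, 9 were higher in females and 1 in males, with a median log2 fold change of 1.052 over the 16. Sult3a1, an amine sulfotransferase, had 258, 167, 154, 246 and 259 CPM in the 5 females and 0.0387, 0.202, 0.0599, 0.0950 and 0 CPM in the 5 males. The lowest female lay far above the highest male (log2 fold change 11.25, standard error 0.39, adjusted p = 1.6e-13). Sult2a2, Sult2a5, Sult2a6 and the predicted gene Gm4794 had no count in any male, Sult2a1 had at most 1, and all 5 were higher in females. These Sult2a genes are close copies, and since read pairs with several positions were not counted, their levels are uncertain. Papss2, which makes the sulfate donor for all of these enzymes, was higher in females at 343 ± 86.7 against 176 ± 30.2 CPM (SD, n = 5 each), a log2 fold change of 1.06 (adjusted p = 0.000229). The exception was Sult2a8, which lies beside Sult2a6 on chromosome 7 and had 481 to 649.9 CPM in females and 807 to 1137 CPM in males (log2 fold change -0.86, adjusted p = 1.04e-07).

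Glucuronidation was divided. Of 22 genes for glucuronosyltransferases and ascorbate synthesis, 5 were higher in females and 8 in males. Ugt2b1 had 315, 409.7, 402, 358 and 297 CPM in females and 877, 1110.1, 1176, 1525 and 937 CPM in males. Every male exceeded every female (log2 fold change -1.77, standard error 0.11, adjusted p = 4.58e-10). Ugt2b38 differed most, with 0.678 ± 0.696 against 18.3 ± 3.29 CPM (SD, n = 5 each, log2 fold change -5.16, adjusted p = 5.45e-06). Ugdh, which makes the glucuronic acid donor, and Gulo, the last enzyme of ascorbate synthesis from that sugar, were both higher in males with log2 fold changes of -1.16 and -0.60. On the female side Ugt1a5 reached 127 ± 21.8 against 33.3 ± 7.38 CPM (SD, n = 5 each, log2 fold change 2.09) and Ugt2b37 16.9 ± 7.23 against 2.06 ± 0.540 CPM (log2 fold change 2.86). The Ugt1a genes share their last exons, so levels of single Ugt1a genes are uncertain.

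Among glutathione S-transferases, 2 of 27 were higher in females and 5 in males. Gstp1, a pi-class enzyme, had 39.2, 72.8, 61.5, 37.8 and 30.6 CPM in females and 438, 374, 396, 921 and 412 CPM in males. All males exceeded all females, and 1 male stood above the others (log2 fold change -3.58, standard error 0.18, adjusted p = 3.34e-11). Gstp2 is a close copy of it, and the split of reads between them is uncertain. The microsomal Mgst1 was higher in males at 2483 ± 390.2 against 1646 ± 249.6 CPM (SD, n = 5 each, log2 fold change -0.65) and Gstt3 higher in females at 75.7 ± 26.2 against 26.02 ± 6.86 CPM (log2 fold change 1.51). The male-higher count fell to 3 of 27 without C3 male replicate 4. Each of 7 single livers, when left out, ended the call of Gsta2 (log2 fold change -2.17), and each of 9 ended that of Mgst3 (1.02).

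Flavin monooxygenases, oxidases, epoxide hydrolases and esterases had 16 of 34 genes called (47.1%), 6 higher in females and 10 in males. Fmo2, a flavin monooxygenase, had 49.4, 35.4, 30.5, 38.6 and 47.7 CPM in females and 10.06, 5.85, 6.65, 5.01 and 5.14 CPM in males. Every female exceeded every male (log2 fold change 2.67, standard error 0.20, adjusted p = 1.5e-08). Fmo4 and Fmo1 were higher in females too, with log2 fold changes of 1.72 and 0.83, and Fmo5 was higher in males (-0.89). Por, the reductase that passes electrons to P450 enzymes, and the quinone reductase Nqo1 were higher in females (0.96 and 1.53). The aldehyde oxidases were on the male side, Aox3 at 2402 ± 253 against 584 ± 147 CPM (SD, n = 5 each, log2 fold change -2.05) and Aox1 at 147 ± 12.4 against 59.7 ± 1.68 CPM (-1.31). So were the carboxylesterases called, Ces1e, Ces1f, Ces2c, Ces3a and Ces4a, and both epoxide hydrolases Ephx1 and Ephx2. Ces3a had 1148 to 2242 CPM in females and 3471 to 4558 CPM in males (log2 fold change -1.32, adjusted p = 2.22e-08). The call of Ces4a (-2.14) was lost without any 1 of 4 livers.

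The dehydrogenases of alcohols, aldehydes, retinol and steroids had 7 of 66 genes called in each direction. Hsd3b5, a 3-keto reductase of steroids that marks the male mouse liver, had 10.1, 6.23, 7.32, 24.9 and 12.7 CPM in females and 423, 395, 432, 520.5 and 380.0 CPM in males (log2 fold change -5.35, standard error 0.49, adjusted p = 2.08e-07). The highest female was far under the lowest male. Srd5a1, which reduces testosterone and other steroids, was higher in males with a log2 fold change of -1.35. Hsd3b1 and Aldh3b3 had at most 1 count in any male, and were at least 23.8-fold and 33.5-fold higher in females against a limit of 3 counts. The call of Hsd3b1 was lost when C3 female replicate 1, C3 male replicate 3 or C3 male replicate 4 was left out. The retinol dehydrogenases Rdh1 and Rdh16 were higher in females, with log2 fold changes of 1.86 and 0.85, and Aldh1a1 and Adh4 were higher in males (-0.94 and -0.79).

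Transporters were called in both directions, often as neighbours in a cluster. Of 58 tested, 9 were higher in females and 6 in males, and at an adjusted p under 0.05 the larger number was on the male side (9 against 10). Slc22a26, an organic anion transporter, had 233, 240.1, 220.1, 215 and 201 CPM in females and 0.928, 0.403, 0.210, 0.285 and 0.393 CPM in males. The females agreed within a narrow range and no male came near them (log2 fold change 9.05, standard error 0.33, adjusted p = 4.12e-13). The same cluster on chromosome 19 held Slc22a27 and Slc22a29, higher in females (8.92 and 2.86), and Slc22a28 and Slc22a30, higher in males (-4.70 and -0.83). Slco1a1, which takes up bile acids and steroid conjugates, had 140.2 to 319 CPM in females and 708 to 1087 CPM in males (log2 fold change -2.20, adjusted p = 1.72e-06), and its neighbour Slco1a4 was higher in females (1.82). Abcd2, a peroxisomal carrier of very long-chain fatty acyl-CoA, was higher in females at 163 ± 25.2 against 9.82 ± 4.24 CPM (SD, n = 5 each, log2 fold change 4.29). Of the efflux pumps, Abcb1a was higher in females (2.66) and Abcb1b and Abcg2 were higher in males (-1.88 each).

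Neighbouring genes that differ in opposite directions were counted over all autosomes. Among 13240 pairs of consecutive tested genes, both were called in 156 (1.18%), in the same direction in 121 and in opposite directions in 35. Besides the transporters, the opposite pairs included Hsd3b3 (-0.93) and Hsd3b1 (7.85), Ugt2b5 (-0.71) and Ugt2b37 (2.86), Sult2a6 (9.20) and Sult2a8 (-0.86), Serpina3k (-1.09) and Serpina3m (0.58), and the carbonic anhydrases Car3 (-1.70) and Car2 (1.42), all as log2 fold changes.

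Major urinary proteins are lipocalins that carry pheromones in urine. The list of urinary and odorant-binding lipocalins also held others, such as Rbp4, Apom, Lcn2 and Ptgds, and its calls were mostly higher in males. Of 25 tested, 9 were higher in males and 1 in females, with a median log2 fold change of -1.99. Mup21 had 3.37, 2.505, 2.71, 3.51 and 3.93 CPM in females and 838, 899.7, 1047, 1038 and 778 CPM in males (log2 fold change -8.23, standard error 0.33, adjusted p = 1.32e-12). Mup20, the protein known as darcin that attracts females to male scent, had 11.3, 7.67, 6.45, 15.2 and 11.1 CPM in females and 1033, 1814, 1498, 1411 and 1351 CPM in males (log2 fold change -7.14, standard error 0.31, adjusted p = 5.64e-12). In both genes the lowest male stood far above the highest female. Mup3, the member with the highest mean TPM, differed less, at 1618 ± 185 against 6291 ± 733 CPM (SD, n = 5 each, log2 fold change -1.99). The other 15 lipocalins tested were not called. Most Mup genes are near-identical copies and only uniquely placed read pairs were counted, so levels of single Mup genes are uncertain. Ptgds, the only member called higher in females (log2 fold change 1.92), lost its call without any 1 of 8 livers. Lcn2 had a larger change in that direction (2.26) and was not called (adjusted p = 0.0012).

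Secreted inhibitors and acute phase proteins had 14 of 56 genes called, 7 in each direction. A1bg, a plasma glycoprotein of the immunoglobulin superfamily, had 1425, 2618, 2538, 667 and 547 CPM in females and 0.812, 0.662, 0.360, 0.855 and 0.143 CPM in males (log2 fold change 11.07, standard error 0.51, adjusted p = 1.42e-11). The females fell into a higher set of 3 and a lower set of 2, the latter both from pool 1, and the lowest female stood far above the highest male. Serpina1e, a copy of the alpha-1-antitrypsin gene, had 476, 207, 570.2, 2139 and 808 CPM in females and 11834, 14261, 16631, 14401 and 14077 CPM in males (log2 fold change -4.52, standard error 0.65, adjusted p = 3.93e-05). No female reached the lowest male, although 1 female was well above the others. Mug1, a broad protease inhibitor related to alpha-2-macroglobulin, had 2681 to 5464 CPM in females and 7537 to 10371 CPM in males (log2 fold change -1.35, adjusted p = 1.39e-06). Serpina6, the globulin that carries corticosteroids in blood, was higher in females (1.15), and so was the acid glycoprotein Orm3 (1.89). Copies of Serpina1 and Serpina3 share sequence, and the calls of Serpina1c, Serpina3k and Serpina4-ps1 were lost in several settings. The number of male-higher genes ranged from 3 to 7 when single livers were left out.

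Complement and coagulation genes were called in both directions. Of 59 complement and coagulation genes, 3 were higher in females and 6 in males, a balance that turned to 6 against 5 under upper-quartile normalization and on log2 TPM. C6 had 19.5, 15.9, 25.3, 34.6 and 20.7 CPM in females and 258, 341, 343, 397 and 264 CPM in males (log2 fold change -3.89, standard error 0.23, adjusted p = 3.11e-10). C8a had 343, 214, 246, 842 and 316 CPM in females and 1251, 1582, 1645, 1362 and 1516 CPM in males (-1.98, adjusted p = 1.32e-05). C9 and C8b showed the same order with no overlap (-1.82 and -1.72), and together these 4 encode parts of the pore that complement forms in a membrane. C8g, which encodes the remaining chain of C8, was at 287 ± 87.0 and 269.9 ± 64.1 CPM (SD, n = 5 each) and was not called. The central component, encoded by the gene C3, was higher in females at 13566 ± 2295 against 9286 ± 586 CPM (SD, n = 5 each, log2 fold change 0.59, adjusted p = 3.35e-06), as was the lectin Mbl2 (0.78). C4a was higher in males (-3.39), while its near copy C4b stood at 298 ± 55.9 and 295 ± 48.4 CPM and was not called. The split of reads between C4a and C4b is uncertain. The coagulation factors prothrombin (F2) and fibrinogen (Fgb) had log2 fold changes of 0.11 and 0.10 and were not called.

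Genes of the hormone signal itself were called in part. Of 46 genes of the growth hormone, prolactin and IGF axis, 5 were higher in females and 2 in males. Cux2, a repressor known as specific to the female liver, had 38.6, 29.9, 12.97, 13.5 and 24.2 CPM in females and 0.0387, 0.346, 0.360, 0.238 and 0.464 CPM in males. The sexes were separated by more than an order of magnitude (log2 fold change 6.30, standard error 0.52, adjusted p = 4.52e-08). Tox and Trim24, both nuclear regulators, were higher in females as well (3.60 and 2.23), and so was the prolactin receptor Prlr (1.29). The receptor Ghr had a log2 fold change of -0.45 with an adjusted p of 5.77e-06, under the minimum fold change. Stat5b (0.45, adjusted p = 0.00633) and Igf1 (0.26, adjusted p = 0.0458) were not called, nor was the repressor Bcl6, at 14.1 ± 6.44 CPM in females and 52.3 ± 21.99 CPM in males (SD, n = 5 each, log2 fold change -1.71, adjusted p = 0.00843). Socs2 and Cish, feedback targets of Stat5, varied within each sex, at 41.1 ± 15.6 against 21.7 ± 19.03 CPM and 5.59 ± 2.54 against 11.2 ± 11.5 CPM, and were not called. The call of Inhbc, a male-higher activin subunit (-0.50), sat at the threshold and was lost in 10 of 22 settings.

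Nuclear receptors and xenobiotic sensors were called at 2 of 34 (5.9%), which is near the background of 6.77%. The estrogen receptor Esr1 had 59.4, 50.8, 56.8, 58.2 and 59.1 CPM in females and 29.9, 30.1, 21.1, 30.9 and 28.4 CPM in males, a doubling with no overlap (log2 fold change 1.01, adjusted p = 7.34e-06). The sensors of foreign compounds Nr1i2 (PXR) and Nr1i3 (CAR), the fatty acid sensor Ppara and the bile acid sensor Nr1h4 (FXR) had log2 fold changes between -0.16 and 0.27 and were not called. In the list for bile acid conjugation and side-chain oxidation 2 of 14 were called, both higher in males. They were Scp2, which carries sterols and cleaves the bile acid side chain in peroxisomes, at 4177 ± 649 against 1495 ± 171 CPM (SD, n = 5 each, log2 fold change -1.53, adjusted p = 7.7e-10), and Acox2, the oxidase before it (-0.77), whose call was lost without C3 female replicate 1.

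**Figure D3:**
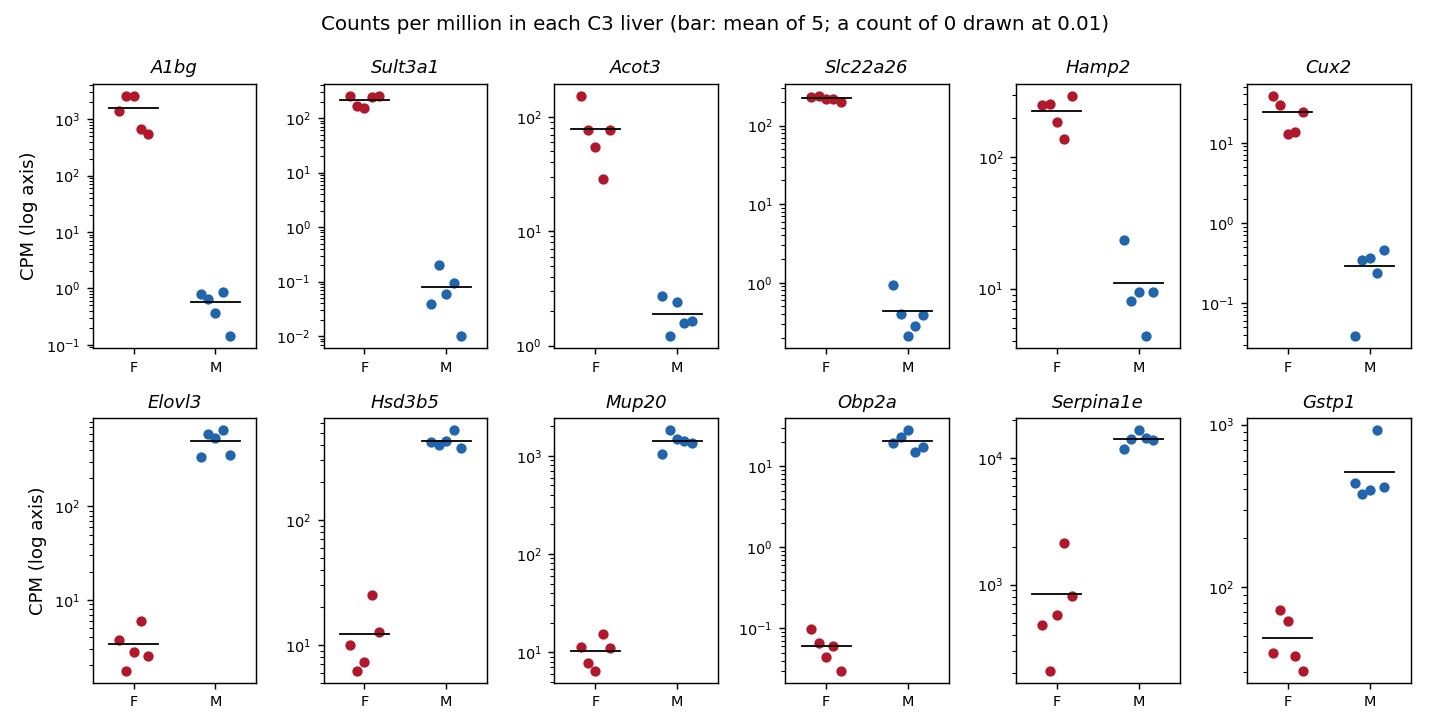
Each panel shows 1 gene, with CPM on a log axis for the 5 female (F, red) and 5 male (M, blue) C3 livers, a bar at the mean of 5, and a count of 0 drawn at 0.01. The top row holds 6 genes higher in females, from A1bg to Cux2, and the bottom row 6 genes higher in males, from Elovl3 to Gstp1. In no panel do the sexes overlap, which was a condition for the genes named by list.

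In lipid metabolism the calls fell on single enzymes rather than on whole pathways. Of 40 genes for fatty acid and triglyceride synthesis, 2 were called in each direction. Elovl3, an elongase of saturated and monounsaturated fatty acids, had 3.74, 1.75, 2.80, 5.95 and 2.52 CPM in females and 337, 595, 544, 649.6 and 356 CPM in males (log2 fold change -7.28, standard error 0.37, adjusted p = 4.43e-11). The lipases Pnpla3 and Pnpla5 were higher in females (3.42 and 3.48), with Pnpla3 at 17.4 to 60.3 CPM in females and 1.23 to 7.14 CPM in males, and its call was lost without any 1 of 8 livers. Fasn, Scd1 and Acaca, which make and desaturate fatty acids, had log2 fold changes of 0.84 (adjusted p = 0.0117), 0.18 and 0.31 and were not called. Of 49 genes for cholesterol and lipoproteins only Vldlr, a receptor for triglyceride-rich particles, was called, at 4.81 ± 2.16 against 0.588 ± 0.253 CPM (SD, n = 5 each, log2 fold change 3.07). That call was lost without C3 male replicate 4.

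Fatty acid oxidation showed a split between enzymes. Of 59 genes tested, 7 were higher in females and 4 in males, and the balance turned to 2 against 3 with glmTreat and 2 against 4 without the pool term. The female side held the acyl-CoA thioesterases Acot2, Acot3, Acot4 and Acot11, which release free fatty acids from CoA. Acot3 had 153, 77.0, 54.5, 28.7 and 77.5 CPM in females and 2.71, 1.21, 2.40, 1.57 and 1.64 CPM in males, a wide range in females that still left all males below (log2 fold change 5.38, standard error 0.53, adjusted p = 4.33e-07). Pdk4, which holds back glucose oxidation, was higher in females at 29.6 ± 4.69 against 10.1 ± 1.75 CPM (SD, n = 5 each, 1.63), but its adjusted p of 0.000817 passed the threshold in none of the fits with 1 liver left out. The male side held the peroxisomal enzymes Phyh, which starts the breakdown of phytanic acid (-0.97), Nudt7, which degrades CoA in peroxisomes (-2.03), and Acox2 (-0.77). The rate-setting carnitine transferase Cpt1a had a log2 fold change of 0.25 and was not called. In the list for lipid uptake and droplets, Cd36, a fatty acid carrier of the cell surface, was higher in females at 76.9 to 119 CPM against 17.5 to 31.0 CPM (2.04, adjusted p = 1.72e-06). Lpl, which releases fatty acids from lipoproteins, was higher in males at 40.4 to 73.4 CPM against 9.39 to 14.7 CPM (-2.25, adjusted p = 3.92e-09). Outside the lists, Hao2, a peroxisomal 2-hydroxyacid oxidase, had 70.3 to 159 CPM in females and 0.193 to 0.360 CPM in males (8.74, adjusted p = 9.55e-08).

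Amino acid, urea and one-carbon genes were called in males only. None of 78 was higher in females and 12 (15.4%) were higher in males, beside 2.81% of all autosomal genes in that direction, though up to 3 were female-higher under other settings, the largest number on log2 TPM. Of the 12, 5 act in the breakdown of tryptophan, a grouping made after the calls were seen and not tested. Tdo2, which opens the ring of tryptophan, had 507, 748, 518, 593 and 652 CPM in females and 955, 1139.7, 1092, 1289 and 1022 CPM in males (log2 fold change -0.89, adjusted p = 9.6e-05). Acmsd, the decarboxylase that diverts the pathway away from NAD synthesis, had 8.07 to 13.5 CPM in females and 19.1 to 35.7 CPM in males (-1.40, adjusted p = 3.23e-05). Kmo, Kynu and Aadat followed with log2 fold changes of -0.57, -0.59 and -0.85, and of the 5 genes only Aadat overlapped between the sexes. The largest differences of the list were in Asns, asparagine synthetase, at 0.452 ± 0.189 against 4.23 ± 1.69 CPM (SD, n = 5 each, -3.44), and Csad, which makes hypotaurine, the precursor of taurine, at 14.97 ± 3.02 against 71.9 ± 25.4 CPM (-2.30). The urea cycle genes Cps1, Ass1, Asl and Arg1 had log2 fold changes between -0.24 and -0.03 and were not called. Glucose and glycogen genes were called at 2 of 48 (4.2%), below the background, and the gluconeogenic genes Pck1 and G6pc (log2 fold changes -0.61 and -0.03) did not pass.

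Iron, heme and metal-binding genes had 4 of 36 called higher in females and 1 higher in males. Hamp2, a paralog of hepcidin, had 251, 256, 187, 139 and 296 CPM in females and 23.6, 8.09, 9.44, 4.35 and 9.39 CPM in males (log2 fold change 4.82, standard error 0.53, adjusted p = 1.72e-06). Hamp, hepcidin itself, was at 1095 ± 407 and 1249.7 ± 741 CPM (SD, n = 5 each) and was not called (0.09). The metallothioneins Mt1 and Mt2, which bind zinc and copper, were higher in females, Mt1 at 154 to 361 against 11.1 to 74.0 CPM (2.97) and Mt2 at 10.02 to 43.5 against 0.230 to 2.21 CPM (4.37). The call of Mt2 was lost without C3 female replicate 1. The female-higher count ranged from 3 to 7 over the fits with 1 liver left out, and the 7 came without C3 male replicate 5.

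Chaperones and folding enzymes were called mostly in males. Of 63 tested, 11 were higher in males, 1 was higher in females and 51 were not called, and 59 had a log2 fold change below 0, with a median of -0.55 beside 0.01 over all autosomal genes. Hspa1b, an inducible Hsp70, had 1.59, 4.68, 0.985, 1.32 and 2.16 CPM in females and 107, 61.5, 87.5, 67.3 and 23.7 CPM in males (log2 fold change -5.31, standard error 0.71, adjusted p = 1.72e-05). Hspa1a, its near-identical copy, differed in the same direction (-4.86). Only uniquely placed read pairs were counted, so the levels of both copies are uncertain. Hsp90aa1, the inducible cytosolic Hsp90, had 152, 160.0, 100.01, 144 and 191 CPM in females and 473, 362, 488, 376 and 210.4 CPM in males (-1.38, adjusted p = 0.000259). Male 5 stood lowest among males in all 3. Of the co-chaperones Dnaja1, Dnajb4, Stip1 and Chordc1 were higher in males (log2 fold changes of -0.80 to -1.06), while the endoplasmic reticulum chaperones Hspa5 (-1.04, adjusted p = 0.0142) and Hsp90b1 (-0.41, adjusted p = 0.0878) were not called. The only member called higher in females was Fkbp5, a target of glucocorticoids (1.34), and its call was lost without any 1 of 7 livers. The male-higher count depended on the fit: it ranged from 4 to 15 when 1 liver was left out and was 34 at an adjusted p under 0.05, 25 with DESeq2, 4 on log2 TPM, 3 without the pool term and 2 with glmTreat.

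**Figure D4:**
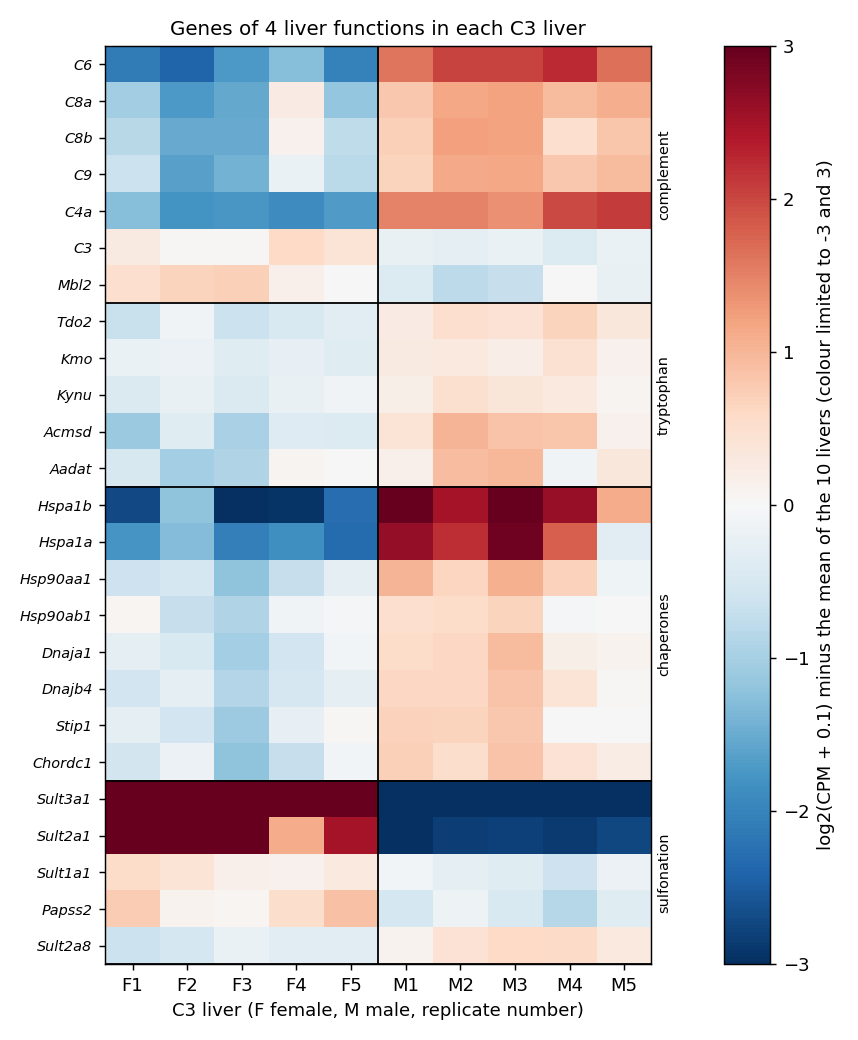
Each column is 1 of the 10 C3 livers and each row 1 gene, coloured by log2(CPM + 0.1) minus its mean over the 10 livers, limited to -3 and 3. Red is above and blue below the mean, and the blocks hold complement, tryptophan, chaperone and sulfonation genes. C6, C8a, C8b, C9 and the tryptophan and chaperone genes are red in males, Sult3a1 and Sult2a1 in females, and male 5 is paler than the other males in the chaperone block.

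Clock and immediate early genes were called at 3 of 39 (7.7%), near the background, and which direction held more calls changed with the setting. The call of Bhlhe41 (log2 fold change -2.40), a repressor of the clock, was lost without any 1 of 8 livers, and that of Ier3 (1.53) without any 1 of 6. The core clock genes Arntl, Nr1d1 and Dbp had log2 fold changes between -0.26 and 0.23 and were not called, and Per2 was at 7.26 ± 3.53 and 20.5 ± 4.84 CPM (SD, n = 5 each, -1.41, adjusted p = 0.00161). Of 47 cell cycle genes, 3 (6.4%) were called, all higher in females. Over all autosomal genes 6.77% were called in either direction and 3.97% were called higher in females. The list had a median log2 fold change of 0.34. Ccnd1, cyclin D1, had 91.4, 93.2, 80.1, 92.3 and 119 CPM in females and 22.7, 15.8, 21.5, 17.7 and 26.3 CPM in males, with no overlap (2.20, standard error 0.25, adjusted p = 2.77e-06). Bub1b (1.48) and Cdkn2c (1.11) were the others, and the call of Bub1b was lost without C3 female replicate 1. The markers of dividing cells Mki67 and Top2a had log2 fold changes of 0.94 (adjusted p = 0.0134) and 0.56 and were not called. The summed markers of Kupffer cells, lymphocytes and cholangiocytes given above were also higher in females, and their part in these 3 calls was not tested.

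Whether a difference in C3 was of another size in B6 was asked with the sex-by-strain interaction, fitted at the same thresholds. It called 52 of 13259 autosomal genes (0.392%), and 22 of the 898 genes called in C3 (2.45%), of which 3 are P450 genes. Since these 22 were chosen for their difference in C3, the larger size in C3 of 21 of them is no result. Cd36 was at 95.1 ± 15.6 and 23.1 ± 5.58 CPM (SD, n = 5 each) in C3 females and males and at 135 ± 39.0 and 144 ± 38.7 CPM in B6 females and males, a difference of the log2 fold changes of 2.14 (standard error 0.30, adjusted p = 0.00043). Lpl was at 12.3 ± 2.41 and 57.7 ± 12.7 CPM in C3 and at 15.1 ± 0.977 and 20.5 ± 2.89 CPM in B6 (difference -1.80, adjusted p = 5.97e-05). In both genes the sexes lay further apart in C3 than in B6. Mup21 (difference -3.84, adjusted p = 4.28e-06) and Mup12 (-4.14, adjusted p = 8.61e-05) had a larger male bias in C3, whereas Mup20 did not pass the test of the difference (-1.03, adjusted p = 0.124).

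The regulator Tox (difference 2.20), the calcineurin inhibitor Rcan2 (2.60) and BC089597 (1.83), a gene of the retinol dehydrogenase list, had a larger female bias in C3. Colec12, a scavenger receptor, was at 80.1 ± 7.61 and 47.04 ± 5.74 CPM in C3 females and males and at 89.6 ± 7.89 and 120.4 ± 8.39 CPM in B6 (difference 1.23, adjusted p = 5.67e-07), so that the higher sex was not the same. The pseudogene Adh6-ps1 had the largest of these differences in absolute size (-5.05, adjusted p = 4.33e-07), with 0.280 ± 0.253 CPM in C3 females against 25.1 ± 2.54 CPM in B6 females. For the other 74 of the 83 called genes that the rule named, the interaction did not pass, which does not show that the strains are alike.

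**Figure D5:**
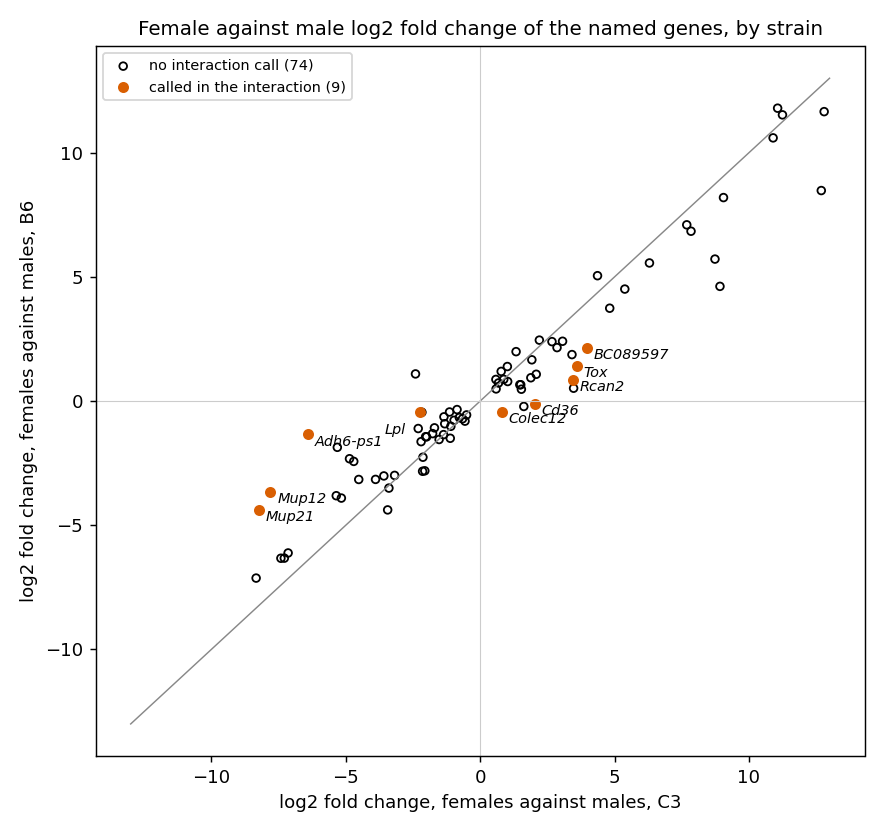
Each point is 1 of the 83 named genes called in C3, with the log2 ratio of females to males in C3 on the x axis and in B6 on the y axis, and the grey line marks equal values. Filled orange points are the 9 genes called in the sex-by-strain interaction, such as Adh6-ps1, Mup12 and Cd36, and they lie away from the line, while the 74 open circles are genes without that call.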

How the data were processed

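Total RNA of each liver was sequenced as paired-end strand-specific libraries after depletion of ribosomal RNA. The authors trimmed reads with cutadapt 1.9.1, aligned them to mm9 with STAR 2.5.1b and counted read pairs per gene with featureCounts of Subread 1.5.0-p1, and deposited raw counts and TPM values. The gene length behind TPM is not given in the sources used here. Names of the symbol and gene number columns are exchanged in the deposited files.

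Here all 20 libraries were fitted on counts with edgeR 4.0.16 in R 4.3.3 (TMM, quasi-likelihood test, Benjamini-Hochberg adjustment over all 13704 loci passing the filter), with a term for each sex and strain group and for pool, and the autosomal rows were reported. The 10 C3 totals ranged from 27370921 to 44044404 counts, and 3 counts correspond to 0.0665 to 0.116 CPM. Such limits cover counting error only. On data simulated for this contrast over 13704 genes, 77 of 100 genes changed by a log2 fold change of 1 and 96 of 100 changed by 2 were recovered, with 0 false calls. The simulation took the spread from the trend with expression level, without a spread particular to each gene, outlying livers or a pool effect in C3. Its counts are therefore not the recovery or the false calls of the real contrast.

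The lists and named genes were chosen with earlier results of these data known. The rule named, P450 genes left out, up to 2 called genes per list and direction with the largest change, no overlap and a mean of at least 1 CPM in the higher sex, the 10 largest changes per direction at 10 CPM or more, the 10 called genes with the highest mean TPM, the 5 with the smallest interaction p, and markers of tissue and sex. Other genes with values were chosen after their values were seen. No libraries were duplicates, since their counts differed beyond sampling noise (chi-square over degrees of freedom 21.09 to 178.7, 20 pairs). The mice are separate animals, so p-values measure the spread between mice. Alternatives were DESeq2 1.42.0, glmTreat, limma 3.58.1 on log2 TPM, other normalizations, filters, thresholds and terms, and each C3 liver left out. Some genes are not reported here.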

Additional observations from a re-analysis of the deposited data

Results flagged for a closer look

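In 22 of 172 groups of 5 livers (12.8%) 1 liver of a named gene stood apart from the other 4 by Dixon's criterion. For independent normal values this happens in about 1 in 20 groups. CPM need not be normal and the genes come from the same livers, so the share does not show an excess. C3 male replicate 4, the only C3 male of pool 3, was that liver 7 times, each time as the highest male: Gstp1 at 921 CPM, Scp2 at 5323 CPM, Mup3 at 7541 CPM, Mgst1 at 3168 CPM, Nudt7 at 995 CPM, Rarres1 at 84.5 CPM and Slc22a28 at 37.4 CPM. All 7 genes were called higher in males.

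C3 female replicate 1 stood apart for Pnpla5 (3.87 CPM), Rcan2 (17.5 CPM), Fitm1 (1.85 CPM) and C4a (9.09 CPM). Female replicate 2 did so for Gsta2 (8.82 CPM), and female replicate 4 for Mup7 (21.1 CPM), Ugt2b38 (1.92 CPM) and Adh6-ps1 (0.721 CPM). Among the males, replicate 1 stood apart for Hamp2 (23.6 CPM), Slc22a26 (0.928 CPM) and Pnpla5 (0.309 CPM), replicate 2 for Pfkfb3 (12 CPM), replicate 3 for Esr1 (21.1 CPM) and Hsd3b1 (0.03 CPM, 1 count), and replicate 5 for Bub1b (0.678 CPM).

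For 9 named genes the female against male log2 fold change differed between the strains by edgeR's interaction test. The difference, C3 minus B6, was 2.60 for Rcan2, 2.20 for Tox, 2.14 for Cd36, 1.83 for BC089597 and 1.23 for Colec12. It was -5.05 for Adh6-ps1, -4.14 for Mup12, -3.84 for Mup21 and -1.80 for Lpl.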

How the results depend on the processing

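No named gene changed direction in any of 22 settings, and in each setting the called genes shared with the 898 had the same direction. Of 83 named called genes, 54 kept their call in every setting and 29 lost it in at least 1. Calls with DESeq2 were 1318 (879 of the 898 among them), with 581 higher in males and 175 in the interaction. With glmTreat, which tests against the minimum fold change itself, they were 300 (161 female-higher, 139 male-higher) and 24. Without the pool term they were 465 (269 and 196) and 20, and at an adjusted p under 0.05 they were 2093 (1359 and 734) and 291. Male-higher calls were 239 with limma on log2(TPM + 1) and 669 with no minimum fold change. Female-higher calls were 828 with limma on log2(TPM + 0.1) and 334 with the C3 libraries alone. The cause of these shifts was not tested. Leaving out 1 C3 liver gave 634 to 1062 calls, 350 to 602 female-higher, 284 to 460 male-higher and 31 to 52 in the interaction. The lowest totals came without C3 male replicate 4, and the interaction gave 31 without that liver, 31 without C3 female replicate 1 and 34 without C3 female replicate 3.

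Equal replicate numbers did not pair the samples, since the correlation of deviations between same-numbered females and males, with pool removed, lay between -0.2 and 0.14. With the replicate block 894 genes were called (797 of the 898 among them), 506 female-higher and 388 male-higher. Of 18 lists with more calls in 1 direction, 9 kept that direction in every setting and 4 showed the opposite in some. In the libraries 3 counts correspond to 0.0665 to 0.116 CPM, below which no difference could be read.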

Other observations

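Several genes outside the function lists, chosen here after their values were seen, differed between the sexes in C3 by edgeR's test and did not overlap between the sexes. Nt5e, the ecto-enzyme that makes adenosine from AMP, was higher in females at 183 ± 32.8 against 28.0 ± 4.63 CPM (SD, n = 5 each, log2 fold change 2.67, adjusted p = 2.56e-10). Fgl1, a fibrinogen-like secreted protein, was at 599 ± 268 against 107 ± 17.2 CPM (2.44). The neurotrophin receptor Ntrk2 (29.7 ± 11.5 against 2.70 ± 0.881 CPM, 3.50), the leptin receptor Lepr (17.6 ± 6.52 against 2.55 ± 0.225 CPM, 2.70) and the recombination gene Rad51b (15.8 ± 5.76 against 0.478 ± 0.228 CPM, 5.25) were also higher in females.

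Other genes chosen in the same way were higher in males. Col27a1, a collagen gene, was at 78.0 ± 13.2 CPM in males against 19.5 ± 4.82 CPM in females (log2 fold change -1.96), Col5a3 at 68.9 ± 11.7 against 15.5 ± 2.64 CPM (-2.10) and the laminin gene Lama3 at 27.02 ± 3.91 against 1.62 ± 0.844 CPM (-4.13). The NADPH oxidase Nox4 (63.7 ± 6.46 against 10.02 ± 5.10 CPM, -2.75) and the replication factor Mcm10 (88.1 ± 10.5 against 26.4 ± 5.62 CPM, -1.80) were higher in males too.

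Meg3, an imprinted non-coding RNA, was higher in C3 males at 1.92 ± 0.518 against 0.649 ± 0.281 CPM (SD, n = 5 each, log2 fold change -1.66), while its log2 fold change in B6 was 2.05, and the interaction was called (difference -3.71, adjusted p = 4.23e-05). Rian, from the same imprinted cluster, had -1.59 in C3, where it was not called (adjusted p = 0.00366), and 2.03 in B6 (difference -3.62, adjusted p = 0.000386).

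Livers differed in how often they lay nearest to the other sex. C3 female replicate 2 was the lowest female in 196 of 526 female-higher genes (37.3%), and female replicate 4 the highest female in 116 of 372 male-higher genes (31.2%). C3 male replicate 5 was the male nearest to females in 159 (30.2%) and 110 (29.6%) of these genes.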
